A study of Mus musculus with 7 samples.

Results

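The heat shock and unfolded protein response genes described here are 40 mouse genes named by symbol: cytosolic, mitochondrial and endoplasmic reticulum (ER) chaperones with their co-chaperones, the transcription factor Hsf1, the 3 sensors of ER stress and the factors and effectors downstream of them. They matched 41 of the 21965 rows of the deposited table, because Ddit3 has a second row. That second row is a 105-base gene model inside Ddit3 and was at 0 counts in all 7 libraries, where 3 counts would correspond to 0.202 CPM (counts scaled to a common library size) in the smallest library. The other 40 rows, 1 per symbol, were among the 14417 genes with enough counts to be tested.

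RNA came from mouse hippocampus, in 3 blank control libraries (Control) and 4 libraries from a noise-induced hidden hearing loss group (NIHHL). The NIHHL group had been exposed to noise of 110 dB for 2 h, 1 month before sampling. Hidden hearing loss is a loss of hearing function that a threshold test does not detect. The labels give no strain, genotype, age, sex, animal or batch, so p-values measure only the spread between these 7 samples, which may be technical.

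Cells answer unfolded protein in the cytosol and nucleus by freeing HSF1, which binds heat shock elements and induces HSP70, HSP90, HSP40 and small heat shock proteins. Unfolded protein in the ER is sensed by IRE1 (Ern1), ATF6 and PERK (Eif2ak3). These sensors act through spliced XBP1, the cleaved form of ATF6 and ATF4 to raise ER chaperones, and PERK itself also slows translation. Neurons hold high levels of constitutive chaperones such as HSC70 (Hspa8), whereas HSP70 (Hspa1a, Hspa1b) is mainly made under stress.

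The first sequences are shown because Hspa1a and Hspa1b had the widest spread of the 40 genes and share most of their sequence. They are neighbouring copies of the inducible HSP70 gene on chromosome 17. The 250 bases before each RefSeq start site (GRCm38.p6, minus strand, 5′ to 3′) differ at 3 positions, given in capitals.
Hspa1a, chr17:34972157-34972406: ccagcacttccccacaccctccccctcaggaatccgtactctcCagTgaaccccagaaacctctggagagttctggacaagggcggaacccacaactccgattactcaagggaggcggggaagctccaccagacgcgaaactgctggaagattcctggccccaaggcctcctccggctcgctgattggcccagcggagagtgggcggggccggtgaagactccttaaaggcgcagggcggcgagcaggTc
Hspa1b, chr17:34959239-34959488: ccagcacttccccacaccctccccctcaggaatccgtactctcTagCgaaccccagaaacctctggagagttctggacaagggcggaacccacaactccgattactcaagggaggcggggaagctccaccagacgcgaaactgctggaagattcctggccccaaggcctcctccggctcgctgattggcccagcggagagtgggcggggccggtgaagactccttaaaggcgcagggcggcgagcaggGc
With the first 50 transcribed bases included, the windows differ at 4 of 300 positions, an identity of 98.7%. Each window holds the letters gaagattc 104 bases before the start, an instance of the 2-unit heat shock motif GAANNTTC. The transcripts are also alike: 58.8% of all 50-base words of Hspa1a occur in Hspa1b, and 62.3% of those of Hspa1b occur in Hspa1a. Reads from the shared stretches cannot be assigned to either copy, and none of the 7 expected counts of either gene was a whole number. Their separate values are therefore uncertain and the summed pair is given beside them.

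A motif of the ER branch is shown because the 7 members that held it are all ER chaperones. The ER stress response element was searched as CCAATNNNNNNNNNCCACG on both strands in 300-base windows (250 before to 50 after the RefSeq start). It was found in 7 of the 31 members that had a window. By windows, it was in 7 of the 37 of these members (18.9%) and in 0.119% of all 32851. The matches are written in the motif's own orientation, with its fixed letters in capitals, and Hsp90b1 holds 2.
Calr, chr8:84847075-84847093: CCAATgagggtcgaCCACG
Canx, chr11:50325800-50325818: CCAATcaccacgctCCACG
Creld2, chr15:88819520-88819538: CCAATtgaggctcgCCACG
Dnajc3, chr14:118937827-118937845: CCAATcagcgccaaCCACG
Hsp90b1, chr10:86705638-86705656: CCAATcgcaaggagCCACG
Hsp90b1, chr10:86705533-86705551: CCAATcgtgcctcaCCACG
Hspa5, chr2:34772025-34772043: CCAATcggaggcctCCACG
Pdia6, chr12:17266491-17266509: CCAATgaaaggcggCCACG
Hspa5 encodes BiP, the main HSP70 of the ER, and its 250 upstream bases on the plus strand carry the element in capitals.
Hspa5, chr2:34771840-34772089: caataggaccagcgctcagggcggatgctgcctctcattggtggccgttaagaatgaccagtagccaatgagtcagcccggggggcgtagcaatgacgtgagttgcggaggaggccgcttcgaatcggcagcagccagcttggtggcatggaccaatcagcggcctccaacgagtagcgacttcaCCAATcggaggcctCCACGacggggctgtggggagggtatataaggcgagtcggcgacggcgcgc
A 3-unit heat shock element, GAANNTTCNNGAA on either strand, was found for Hspd1, Hspe1 and Hsph1. It was in 4 of the 37 member windows (10.8%) and in 0.603% of all windows. Hspd1 and Hspe1, the mitochondrial HSP60 and HSP10, are transcribed away from each other and share the stretch at chr1:55088059-55088076, which holds overlapping copies of the element on opposite strands. The 2-unit form, which the 3-unit form contains, was in 9 of the 31 members. It was in 10 of the 37 member windows (27%) and in 15.1% of all windows. A match of letters is a description of the sequence and does not show that a factor binds there. Hsf1, Atf6, Hspa9, Hsp90aa1, Hspa13, Cryab, Manf, Hsp90ab1 and Hspa8 had no window.

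Library totals ran from 14871376 to 24515146 expected counts. Values per library are given in the order of the replicate numbers, Control 1 to 3 and then NIHHL 1 to 4. The libraries differed widely in transcripts of the choroid plexus, a tissue next to the hippocampus. The summed level of 20 choroid plexus markers was 409, 9423 and 2403 CPM in Control against 12346, 1060, 6559.9 and 6652 CPM in NIHHL, and Ttr, its main transcript, ran from 56.3 to 7826 CPM. The 14 ependymal markers summed to 80.2, 111 and 105 CPM in Control against 149, 145, 133 and 126 CPM in NIHHL, with no overlap between the groups. Of all single genes tested, 5.2% did not overlap between the groups. All 14 ependymal markers had a log2 fold change above 0, against 49.9% of all genes. In edgeR 9 of these markers had an unadjusted p under 0.05, against 3.63% of all genes, and 0 of the markers passed an adjusted p of 0.05. Their part in the members' values was not tested. The 16 hippocampal neuron markers summed to 4197, 4082 and 3794 CPM in Control against 3592, 3787, 3696 and 4072 CPM in NIHHL. The groups overlapped, and none of these markers was at 0 in any library. Of the 16, 6 had a log2 fold change above 0 and 10 below. In edgeR 1 of them, lower in NIHHL, had an unadjusted p under 0.05, and 0 passed an adjusted p of 0.05. The part of the neuron markers in the members' values was not tested. In a bulk sample, fewer cells of a type and less RNA per cell cannot be told apart.

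None of the 40 genes differed between NIHHL and Control at an adjusted p under 0.05 in edgeR's quasi-likelihood test, whose percentage called over all 14417 genes was likewise 0.0%. The smallest adjusted p was 0.472 over all genes and 0.996 among the members. At an unadjusted p under 0.05 there was 1 member, Ddit4, beside 523 genes or 3.63% of all tested. Log2 fold changes (NIHHL over Control) were above 0 for 20 members and below 0 for 20, against 49.9% above 0 over all genes. Their median was -0.00328, beside -0.000454 over all genes. The libraries of the groups did not overlap for 1 member, Dnajc3, whereas this held for 5.2% of all genes.

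The precision differed between members. Of 40, 33 had a log2 fold change smaller than 0.15 in either direction, and 34 had a 95% interval inside ±0.5, a change of 1.41-fold. The other 6 intervals were those of Hspa1a, Hspa1b, Hspb1, Dnajb1, Hspb8 and Sdf2l1. These 6 intervals include changes of more than 1.41-fold. The plot of fold changes shows the contrast between narrow and wide intervals.

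**Figure D1:**
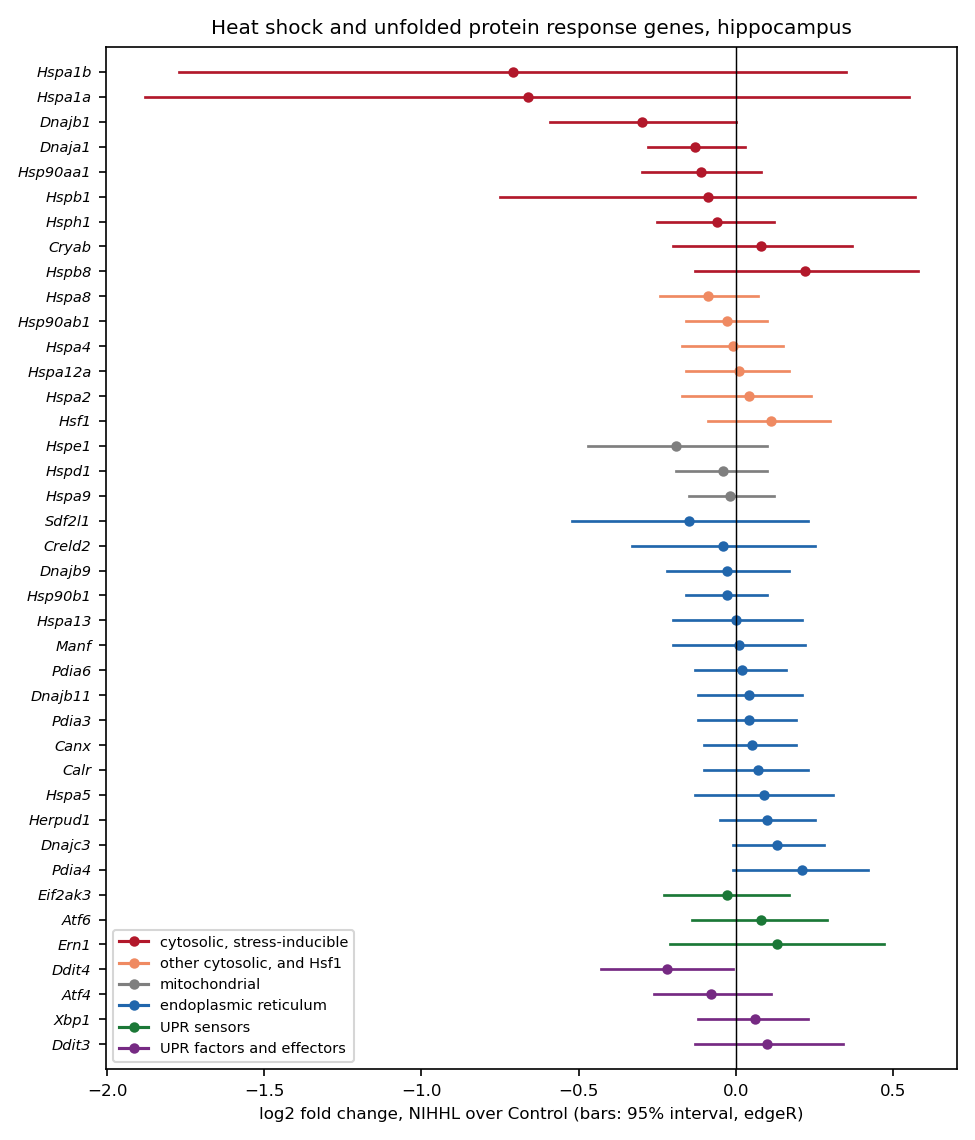
Log2 fold change of each of the 40 genes (x axis, NIHHL over Control, edgeR) with its 95% interval as a bar, 1 gene per row, coloured by role. Most points lie near 0, from -0.71 for Hspa1b to 0.22 for Hspb8, and the intervals of Hspa1a, Hspa1b and Hspb1 are the widest.

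The stress-inducible cytosolic chaperones came first in spread. Hspa1a was at 9.98, 12.96 and 36.7 CPM in Control against 11.9, 9.54, 12.1 and 17.1 CPM in NIHHL. Hspa1b was at 12.1, 14.3 and 35.4 CPM in Control against 10.2, 10.9, 11.01 and 18.6 CPM in NIHHL. The same libraries were high for both copies: Control replicate 3 stood above the other 6, NIHHL replicate 4 came next, and the groups overlapped. The log2 fold changes were -0.66 (SE 0.49, 95% interval -1.88 to 0.55) for Hspa1a and -0.71 (SE 0.44, -1.77 to 0.35) for Hspa1b. Neither passed the test (adjusted p = 0.996 for each in edgeR). Summing the copies gave 22, 27.2 and 72 CPM in Control, 22.1, 20.5, 23.1 and 35.7 CPM in NIHHL, and a log2 fold change of -0.68 (SE 0.48, edgeR adjusted p = 0.996). Without Control replicate 3 the values were 0.13 for Hspa1a and -0.06 for Hspa1b, so that library decided the size of the difference in both and its direction in Hspa1a. Without Control replicate 1 the value was -0.97 for both. A predicted gene on the opposite strand, Gm20481, shares 564 exonic bases (19%) with Hspa1a. Whether the counting used strand is not known from the sources used here.

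Hspb1, the small heat shock protein HSP27, had the next widest spread. It was at 2.63, 4.195 and 7.31 CPM in Control against 3.77, 4.37, 4.18 and 5.66 CPM in NIHHL. Control replicate 3 was again the highest and NIHHL replicate 4 the second, whereas Control replicate 1 was the lowest of the 7. The log2 fold change was -0.09 (SE 0.30, 95% interval -0.75 to 0.57), with 0.37 without Control replicate 3 and -0.36 without Control replicate 1. Dnajb1, the HSP40 co-chaperone that delivers clients to HSP70, was at 52.2, 58.99 and 80.5 CPM in Control against 49.4, 50.9, 49.9 and 58.3 CPM in NIHHL. Of its 4 NIHHL libraries, 3 were below all Control libraries and NIHHL replicate 4 lay within their range. Its log2 fold change of -0.30 (SE 0.13) came with an unadjusted p of 0.0509 in edgeR and an adjusted p of 0.996. Without Control replicate 3 the value was -0.09, and without Control replicate 1 it was -0.42 (edgeR adjusted p = 0.996 and 0.815). With the choroid plexus score as a covariate it was -0.33, and with DESeq2 -0.30.

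Dnaja1, another HSP40, was at 293, 329 and 348 CPM in Control against 283, 300.5, 295 and 305 CPM in NIHHL, a log2 fold change of -0.13 (SE 0.07). As for Hspa1a and Hspa1b, none of the expected counts of Dnaja1 was a whole number, and the reason was not tested. Hsp90aa1, the inducible cytosolic HSP90, was at 798, 932 and 978 CPM in Control against 775, 913, 788 and 872 CPM in NIHHL. Hsph1 encodes HSP110, the nucleotide exchange factor of HSP70, and was at 268, 248 and 303 CPM in Control against 254, 249.6, 251 and 288 CPM in NIHHL. Control replicate 3 was the highest library for these 3 genes too, by a smaller margin, and the groups overlapped for each. The log2 fold changes were -0.11 (SE 0.09) for Hsp90aa1 and -0.06 (SE 0.08) for Hsph1. Without Control replicate 3 they were -0.05 and 0.02, and that of Dnaja1 was -0.07. Without Control replicate 1 they were -0.19 for Hsp90aa1, -0.08 for Hsph1 and -0.19 for Dnaja1.

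Cryab, the small heat shock protein alpha B-crystallin, which is abundant in oligodendrocytes and astrocytes, was at 94.5, 106 and 136 CPM in Control against 125, 113, 134 and 103 CPM in NIHHL. Hspb8, a small heat shock protein that works with the co-chaperone BAG3, was at 21.8, 29.5 and 27.9 CPM in Control against 40.5, 26.5, 28.5 and 27.9 CPM in NIHHL. Control replicate 1 was the lowest library for both; for Hspb8 the highest was NIHHL replicate 1, and the remaining 3 NIHHL libraries lay within the Control range. The log2 fold changes were 0.08 (SE 0.13) for Cryab and 0.22 (SE 0.16) for Hspb8. Cryab moved to 0.25 without Control replicate 3 and -0.03 without Control replicate 1. Hspb8 moved to 0.06 without NIHHL replicate 1, 0.31 without Control replicate 2 and 0.08 with the choroid plexus score as a covariate. Cryab shares 252 exonic bases (17%) with Hspb2 on the opposite strand. Summed oligodendrocyte markers were at 7005, 7188 and 8792 CPM in Control against 8818, 8258, 9501 and 8040.1 CPM in NIHHL. Beside 49.9% of all genes tested, 9 of 10 of these markers were higher in NIHHL. Their part in the Cryab values was not tested.

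**Figure D2:**
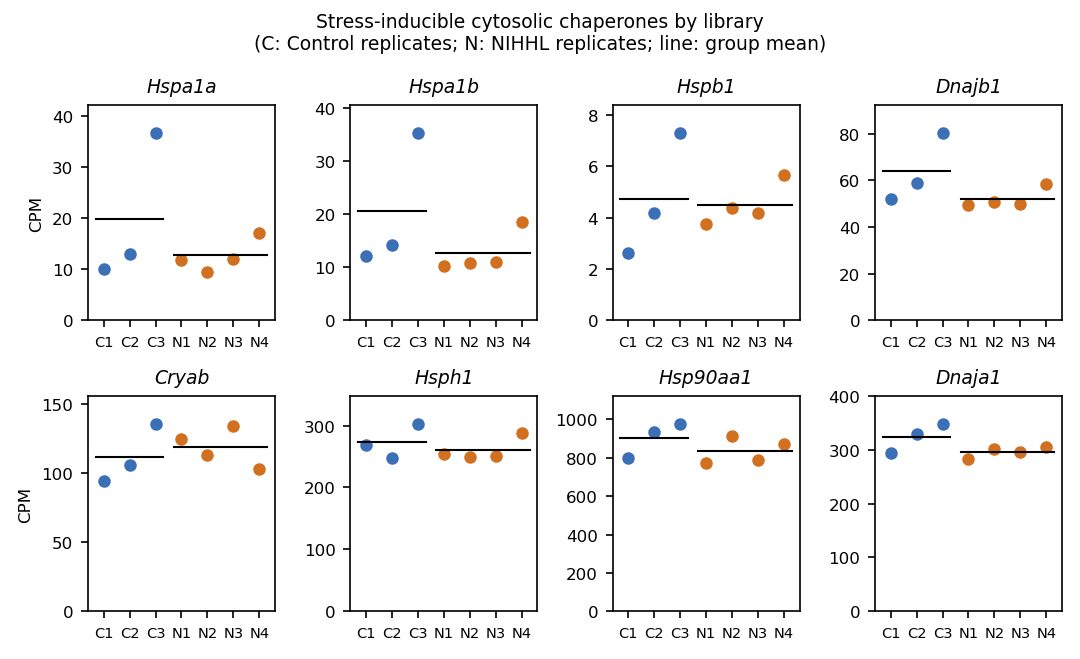
CPM (y axis, from 0, own scale per panel) of 8 of the 9 stress-inducible cytosolic chaperones in each library (x axis, C1 to C3 Control, N1 to N4 NIHHL), with the group mean as a line. Hspb8, left out here, is shown with the ER genes. In the panels of these 8 genes Control replicate 3 is the highest point, with 36.7 against 17.1 CPM in the next library for Hspa1a and 136 against 134 CPM for Cryab.

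Control replicate 3 had the highest level for 8 of the 9 stress-inducible cytosolic members, Hspb8 being the exception. These roles were chosen with earlier results of these data known, so the count is a description only. Among related cytosolic genes outside the 40, that library was the highest for 6 of 39 (15.4%). It was the highest library for 13 of the 40 members (32.5%) and for 10.8% of all genes tested. Hspa1a stood 1.68 log2 units above the mean of the other 2 Control libraries, which is 3.21-fold, and 40 genes (0.277% of those tested) stood as high there. Hspa1b stood 1.42 above (63 genes, 0.437%), Hspb1 1.11 (105 genes, 0.728%), Dnajb1 0.54 and Cryab 0.45. The 9 members had a median log2 fold change of -0.11 with 2 above 0, and of 0.02 with 5 above 0 without that library. Over all 40, the count above 0 was 24 without it and 18 without NIHHL replicate 3 or 4, the lowest count over the left-out libraries.

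Beside 10.8% of all genes tested, Control replicate 3 was also the highest library for 11 of 18 immediate early genes (61.1%). These are induced within minutes by neuronal activity. Their summed level was 646, 670.3 and 898 CPM in Control against 554, 659, 649 and 796 CPM in NIHHL. Control replicate 3 was thus highest and NIHHL replicate 4 second for this list, as for Hspa1a, Hspa1b, Hspb1 and the pair summed. Below these ranks the order of the libraries differed. Of the 18 immediate early genes, 5 had a log2 fold change above 0, beside 49.9% of all genes. Without Control replicate 3 it was 9 of 18. The part of these transcripts in the chaperone values was not tested.

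**Figure D3:**
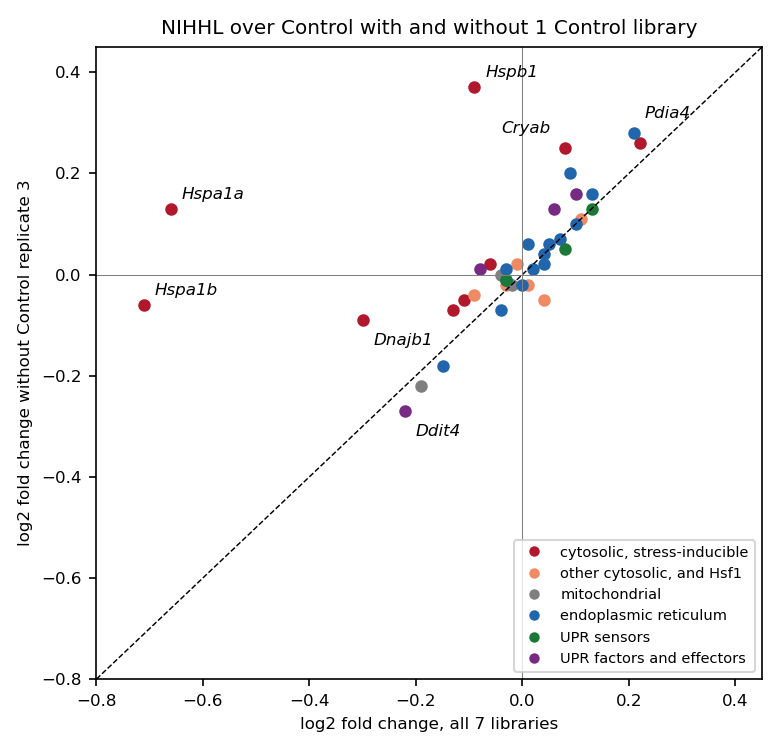
Log2 fold change of the 40 genes with Control replicate 3 left out (y axis) against that with all 7 libraries (x axis), coloured by role, with the dashed line of equal values. Hspa1a, Hspa1b, Hspb1 and Dnajb1 lie far above the line, whereas Ddit4 and most ER genes stay close to it.

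The other cytosolic members varied little. Hspa8, the constitutive HSC70, was at 1952, 2124 and 2251 CPM in Control against 1912, 1985, 2098 and 1953 CPM in NIHHL, a log2 fold change of -0.09 (SE 0.07). Hsp90ab1, the constitutive cytosolic HSP90, was at 1541, 1558 and 1596 CPM in Control against 1519.9, 1507, 1506 and 1584 CPM in NIHHL. The groups overlapped for both, and the 7 libraries of Hsp90ab1 spanned 1.06-fold, with a log2 fold change of -0.03 (95% interval -0.16 to 0.10). Hsf1, the factor that induces heat shock genes, was at 17.5, 17.8 and 17.8 CPM in Control against 19.1, 18.6, 20.8 and 17.8 CPM in NIHHL. For Hsf1, 3 NIHHL libraries were above the Control range and NIHHL replicate 4 was not, with a log2 fold change of 0.11 (SE 0.09). Hspa4, an exchange factor of the HSP110 family, averaged 230.3 ± 12.9 CPM in Control against 229 ± 14.1 CPM in NIHHL (SD, n = 3 and 4). The fold changes of Hspa2, the HSP70 known from the testis, and of Hspa12a, a distant HSP70 relative that is abundant in brain, were 0.04 and 0.01 on the log2 scale.

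Per kilobase of exon, the mean level over the 7 libraries was 515 CPM per kb for Hsp90ab1 and 474 for Hspa8, the constitutive HSP90 and HSC70, and 220.1 for the inducible Hsp90aa1. Hspa1a was at 5.31 and Hspa1b at 5.73 CPM per kb on the same scale, and Hsf1 at 2.604. The SD of log2 CPM was taken within each group and pooled over both. It was 0.03 for Hsp90ab1, at the 0.659th percentile of all genes tested, and 0.68 for Hspa1a, at the 97.5th. Hspa1b (96.7th) and Hspb1 (94.2nd) were the other members above the 90th percentile. The highest library was less than 1.5-fold above the lowest for 33 of the 40 members. The remaining 7 were Hspa1a (3.85-fold), Hspa1b (3.48), Hspb1 (2.78), Hspb8 (1.85), Hspe1 (1.69), Dnajb1 (1.63) and Ern1 (1.58).

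**Figure D4:**
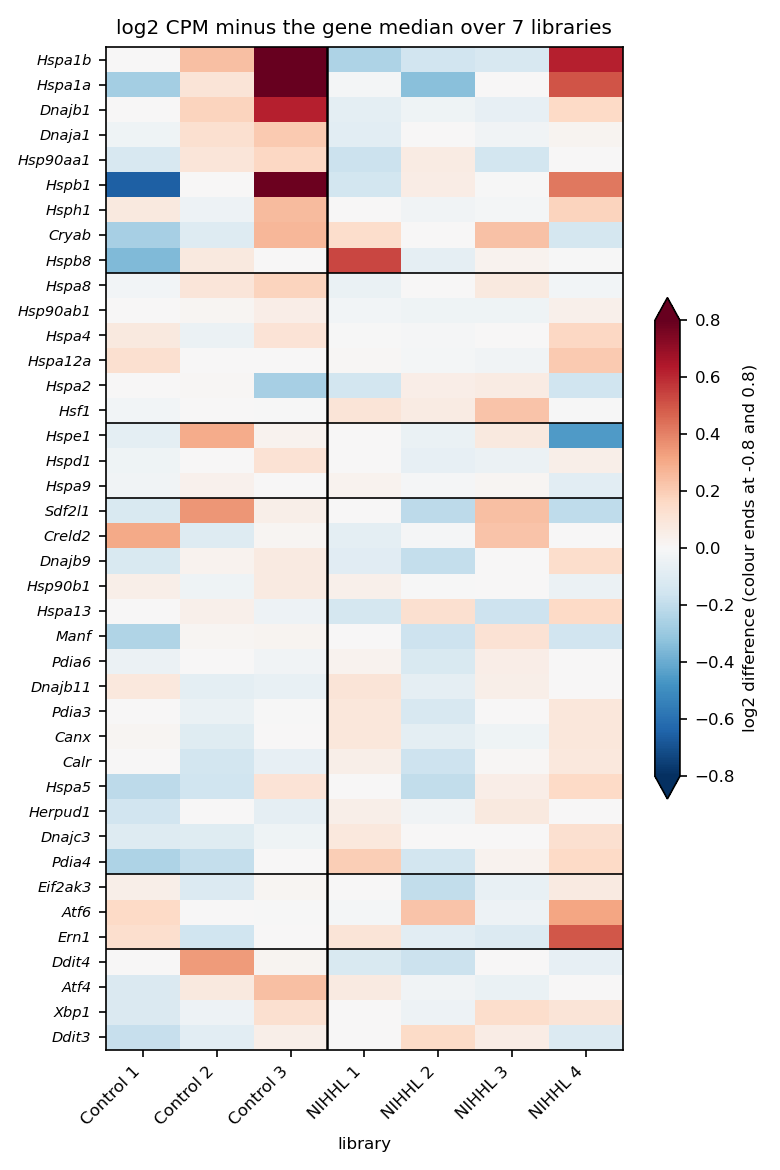
Log2 CPM minus the gene's median over the 7 libraries (colour, red above and blue below, ends at -0.8 and 0.8), with 40 genes in rows grouped by role and libraries in columns (Control left of the line, NIHHL right). The Control replicate 3 column is red over most stress-inducible genes in the top block, and the ER block shows no column that separates the groups.

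Of the 3 mitochondrial members, Hspe1, the HSP10 lid of the HSP60 chamber, was at 49.02, 63.6 and 52.9 CPM in Control against 51.8, 50, 54.7 and 37.7 CPM in NIHHL. NIHHL replicate 4 was the lowest and Control replicate 2 the highest, and the other 5 libraries lay between 49.02 and 54.7 CPM. The log2 fold change was -0.19 (SE 0.13, 95% interval -0.47 to 0.10). Hspd1, the HSP60 chamber itself, averaged 165 ± 8.98 CPM in Control against 160.4 ± 5.78 CPM in NIHHL (SD, n = 3 and 4). Hspa9, the mitochondrial HSP70 that drives protein import, averaged 280.3 ± 5.82 and 277 ± 9.64 CPM. The 3 log2 fold changes were below 0, with a median of -0.04, and Hspd1 was at 0.00 without Control replicate 3. Hspd1 and Hspe1 share 112 exonic bases on opposite strands, so part of their reads may be exchanged where strand was not used.

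Among the 15 ER members, 11 had a log2 fold change above 0 and 4 below, with a median of 0.04. The counts were the same without Control replicate 3. Over the left-out libraries, the count above 0 ran from 9 without NIHHL replicate 3 to 12 without Control replicate 2. It was 10 in limma-voom and with the choroid plexus covariate. Hspa5 (BiP) was at 200.4, 207 and 251 CPM in Control against 232, 203, 241 and 259 CPM in NIHHL. Hsp90b1, the HSP90 of the ER also known as GRP94, was at 257, 242 and 261 CPM in Control against 256, 248, 249 and 240.3 CPM in NIHHL. The groups overlapped for both, and the log2 fold changes were 0.09 (SE 0.10) for Hspa5 and -0.03 (SE 0.06) for Hsp90b1. Without Control replicate 3, the highest Control library for Hspa5, its value was 0.20 (SE 0.10, adjusted p = 0.996 in edgeR), and without Control replicate 1 it was 0.03.

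Pdia4, a protein disulfide isomerase that forms disulfide bonds in the ER, had the largest log2 fold change of this group. It was at 45.4, 47.2 and 53.8 CPM in Control against 61.6, 48.6, 54.8 and 59.98 CPM in NIHHL. Of the NIHHL libraries, 3 were above all Control libraries and NIHHL replicate 2 lay within their range. The log2 fold change was 0.21 (SE 0.10), with an unadjusted p of 0.0556 and an adjusted p of 0.996 in edgeR. Leaving out single libraries gave values from 0.16 to 0.28, the highest without Control replicate 3. The lowest and highest Pdia4 libraries, Control replicate 1 and NIHHL replicate 1, had the lowest and highest choroid plexus sums, 409 and 12346 CPM. NIHHL replicate 2 had the lowest sum of its group, at 1060 CPM. Within Control, replicate 2 had the highest sum and less Pdia4 than replicate 3. With the choroid plexus score as a covariate the log2 fold change was 0.14. The part of choroid plexus tissue in the Pdia4 values was not tested.

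Dnajc3, the ER co-chaperone that also inhibits PERK, was at 55.1, 55.5 and 57.8 CPM in Control against 62.8, 59.5, 59.2 and 64.8 CPM in NIHHL. All 4 NIHHL libraries were above all 3 Control libraries, the gap between the groups being that from 57.8 to 59.2 CPM. The log2 fold change was 0.13 (SE 0.07, 95% interval -0.01 to 0.28, adjusted p = 0.996 in edgeR). Herpud1, which links the ER to degradation of misfolded protein, was at 45.6, 50.9 and 48.2 CPM in Control against 52.6, 49.9, 53.5 and 50.8 CPM in NIHHL. These groups overlapped through Control replicate 2, with a log2 fold change of 0.10 (SE 0.07), 0.06 with the choroid plexus covariate and 0.14 without Control replicate 2.

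Manf, a secreted ER stress protein with neurotrophic activity, was at 38.5, 45.9 and 46.2 CPM in Control against 45.5, 40.5, 49.3 and 40.9 CPM in NIHHL. Sdf2l1, a cofactor of BiP, was at 5.19, 7.26 and 5.85 CPM in Control against 5.66, 4.88, 6.72 and 4.896 CPM in NIHHL. The groups overlapped for both, with log2 fold changes of 0.01 (SE 0.10) and -0.15 (SE 0.17). The lectin chaperones Calr and Canx, which hold glycoproteins during folding, averaged 270.2 ± 14.1 and 308 ± 12.8 CPM in Control against 283 ± 21.1 and 318 ± 18.8 CPM in NIHHL (SD, n = 3 and 4). Pdia3, their disulfide isomerase partner, averaged 193 ± 3.82 against 197 ± 13.99 CPM. Pdia6, a further isomerase, averaged 99.2 ± 1.73 against 100.4 ± 5.37 CPM. The remaining 4 were the BiP co-chaperones Dnajb9 and Dnajb11, the HSP70 relative Hspa13 and the ER stress protein Creld2, with log2 fold changes between -0.04 and 0.04. Of the 7 genes with an ER stress response element, Calr, Canx, Dnajc3, Hspa5 and Pdia6 were above 0 and Hsp90b1 and Creld2 below, with values from -0.04 to 0.13.

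**Figure D5:**
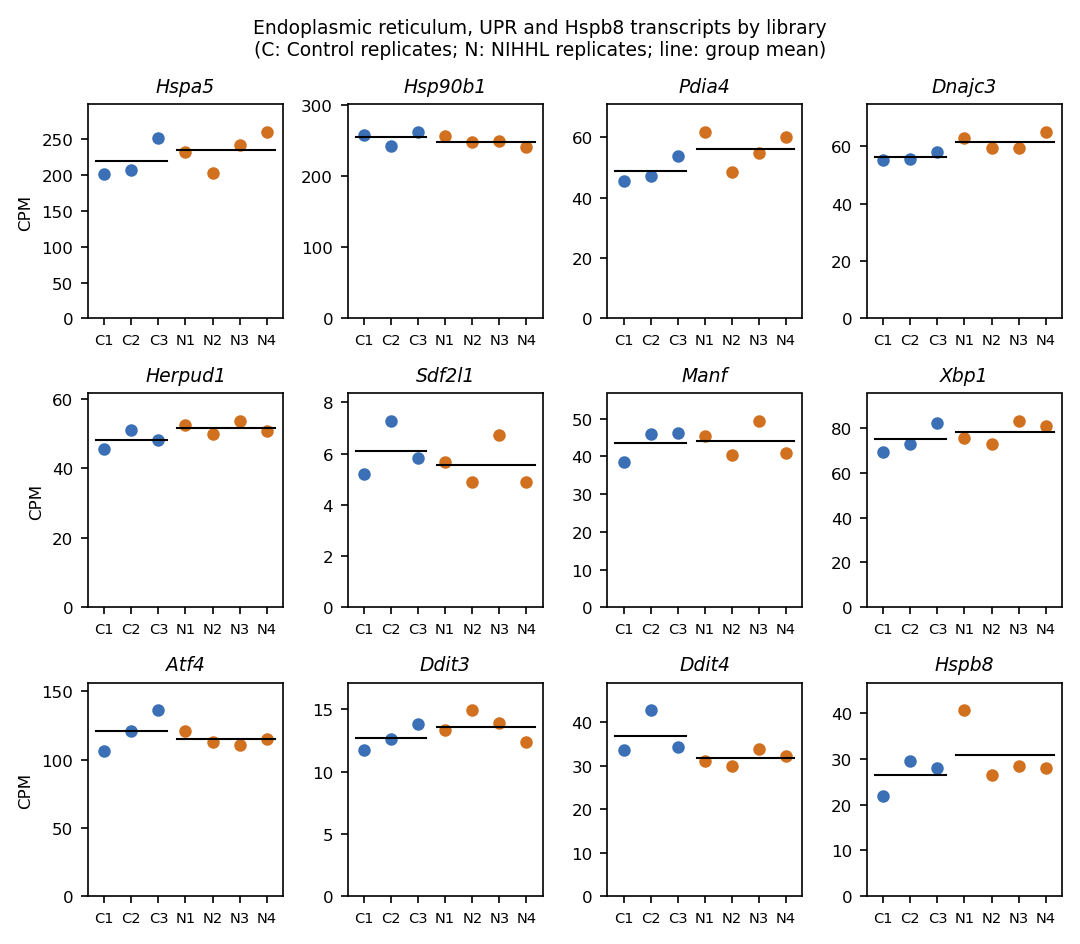
CPM (y axis, from 0, own scale per panel) of 12 genes in each library (x axis, C1 to C3 Control, N1 to N4 NIHHL), with the group mean as a line. The 4 NIHHL points of Dnajc3 sit above its 3 Control points, and the groups overlap in the other panels. In the panel of Hspb8, NIHHL replicate 1 stands at 40.5 CPM.

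None of the 3 sensors of ER stress passed the test. Ern1 (IRE1, the kinase and ribonuclease that splices Xbp1) averaged 11.9 ± 1.23 CPM in Control against 12.96 ± 2.69 CPM in NIHHL (SD, n = 3 and 4). Its highest library, NIHHL replicate 4 at 16.8 CPM, set the log2 fold change of 0.13, which was -0.02 without it. Atf6, a membrane-bound factor released by cleavage, averaged 84.7 ± 5.66 and 89.2 ± 10.9 CPM. Eif2ak3 (PERK, the kinase that slows translation) averaged 25.4 ± 1.45 and 24.9 ± 1.97 CPM. Their log2 fold changes were 0.08 (SE 0.10) and -0.03 (SE 0.09).

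Downstream of the sensors, Xbp1 was at 69.4, 72.96 and 82.1 CPM in Control against 75.2, 72.9, 82.8 and 80.6 CPM in NIHHL. A count per gene does not separate spliced from unspliced Xbp1. Atf4, the factor translated when PERK is active, was at 106, 121 and 136 CPM in Control against 121, 113, 111 and 115 CPM in NIHHL. Ddit3 (CHOP, a factor linked to cell death under lasting ER stress) was at 11.7, 12.6 and 13.8 CPM in Control against 13.3, 14.9, 13.9 and 12.4 CPM in NIHHL. The groups overlapped for the 3 genes, with log2 fold changes of 0.06 (SE 0.08), -0.08 (SE 0.08) and 0.10 (SE 0.11).

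Ddit4 (REDD1, a stress-induced inhibitor of mTORC1 that also responds to glucocorticoids) had the smallest p of the 40. It was at 33.7, 42.7 and 34.2 CPM in Control against 31.02, 29.9, 33.8 and 32.3 CPM in NIHHL. Control replicate 2 was the highest library, and the groups overlapped because NIHHL replicate 3 lay just above Control replicate 1. The log2 fold change was -0.22 (SE 0.10, 95% interval -0.43 to -0.01), with an unadjusted p of 0.0451 and an adjusted p of 0.996 in edgeR. Without Control replicate 2 the log2 fold change was -0.09. It was -0.28 without Control replicate 1 and also -0.28 with the choroid plexus score as a covariate (edgeR adjusted p = 0.815 and 0.882).

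Other genes of the same pathways gave no calls either. Of 39 tested cytosolic chaperones, co-chaperones and HSF1 targets outside the 40, 9 had a log2 fold change above 0 and 30 below, with a median of -0.06 and 3 at an unadjusted p under 0.05, all lower. The smallest p was that of Cacybp, a co-chaperone of HSP90 and the ubiquitin pathway, at 72.01, 84.9 and 89.8 CPM in Control against 66.7, 69.8, 66.6 and 73.8 CPM in NIHHL. Dnajc7, an HSP40 that bridges HSP70 and HSP90, was next, at 121, 124 and 123 CPM in Control against 106, 114, 115 and 105 CPM in NIHHL. Dnajc7 did not overlap between the groups, which held for 5.2% of all genes tested. Cacybp overlapped through NIHHL replicate 4 and Control replicate 1. The log2 fold changes were -0.15 (SE 0.06) for Dnajc7 and -0.25 (SE 0.08) for Cacybp. The adjusted p was 0.996 for each in edgeR. Control replicate 3 was the highest library for 6 of these 39 genes (15.4%), and without it 12 were above 0 and 0 were at an unadjusted p under 0.05. Without Control replicate 2 that count was 1. Without Control replicate 1 it was 8 of 40 tested, all lower, with 33 of 40 below 0. It was 1 or 2 in the fits that left out an NIHHL library, so it depended on the library left out. Over all genes, edgeR gave 523 of 14417 at that threshold with all 7 libraries and 808 of 14660 without Control replicate 1. There were 670 of 14557 without Control replicate 2 and 547 of 14545 without Control replicate 3.

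In the mitochondrial protein quality control list, 8 of 16 genes were above 0 and 8 below, with Clpb, a disaggregase, at 0.09 and Phb2, a prohibitin, at -0.10 as the genes with the smallest p. In the list of ER folding and ER-associated degradation, 27 of 47 were above 0, with a median of 0.02. Edem2, which trims misfolded glycoproteins for degradation, was at 0.20 (SE 0.11) and Sec61b, a subunit of the ER translocon, at -0.28 (SE 0.16). Of the ATF4 targets and genes of the integrated stress response, 19 of 35 were above 0, with a median of 0.00. Psph, the last enzyme of serine synthesis, was at 0.18 (SE 0.10) and Eif2s1, the translation factor subunit that PERK phosphorylates, at -0.11 (SE 0.07). No gene of these 3 lists reached an unadjusted p under 0.05 in edgeR.

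The 40 transcripts together summed to 8193, 8516 and 9035 CPM in Control against 8224, 8220.4, 8367 and 8561 CPM in NIHHL. Control replicate 3 was the highest, and the 4 NIHHL libraries lay within the Control range. NIHHL replicate 4 was the highest library for 11 of the 40 members (27.5%), 6 of them ER chaperones, and for 20.4% of all genes. The lowest library was Control replicate 1 for 12 members (30%) and for 15.2% of all genes, and NIHHL replicate 2 for 9 members (22.5%) and for 9.18% of all genes.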

How the data were processed

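Polyadenylated RNA of 7 hippocampal samples was sequenced on an Illumina NovaSeq instrument, per the labels' protocols. The authors deposited expected counts per gene, of which 90.7% were whole numbers. Per the submitters' processing notes, the tools used were HISAT2, Bowtie2 2.2.8, StringTie 1.3.1 and DESeq2, with no role stated. For the genome build, annotation, counting step and strandedness, nothing is given in the sources used here.

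Expected counts were rounded, filtered with filterByExpr (minimum count 10; 14417 genes, 99.96% of counts) and scaled by TMM. NIHHL was compared with Control by edgeR 4.0.16's robust quasi-likelihood test in R 4.3.3, with Benjamini-Hochberg adjustment over all genes tested and a threshold of 0.05. The script was tested on simulated data. CPM values use TMM factors, and log2 fold changes are NIHHL minus Control. Total counts of 14871376 to 24515146 per library limit precision for low transcripts, and floors cover counting error only. DESeq2 1.42.0, limma 3.58.1 (voom) and other filters, scalings, covariates and left-out libraries were alternatives.

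The 40 genes, the roles and the lists were chosen with earlier results of these data known. Values per library are printed for the 12 members with the smallest p and a set list of well-known members, and the 2 genes with the smallest p per pathway list. The sum of Hspa1a and Hspa1b was added after seeing the data. Gene lengths and exon overlaps are from GENCODE vM21 (GRCm38), and promoter windows from RefSeq (GRCm38.p6).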

Additional observations from a re-analysis of the deposited data

Results flagged for a closer look

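In the 4 NIHHL libraries, 5 of the 40 members had 1 library far from the other 3, measured as its gap to the nearest library over the whole range and set against Dixon's critical value of 0.829. For independent, normally distributed genes, chance flags about 1 in 20 such groups, or about 2 of 40. The 40 members share the same libraries and are not independent, so that number is no measure of an excess. The share of all genes flagged by this rule was not taken. NIHHL replicate 4 stood apart for 4 of them. Hspa4 was at 222, 221 and 223 CPM in NIHHL replicates 1 to 3 and at 249.9 CPM in replicate 4 (ratio 0.936). Hspa1b was at 18.6 CPM there, against 11.01 or less in the others (0.901). Hsph1 was at 288 CPM, against 254 or less (0.879). Hspa12a was at 310.5 CPM, against 269 or less (0.868). The NIHHL replicate 4 level was the higher one for these 4 genes, a library that was the highest for 20.4% of all genes tested. Hspb8 stood apart in NIHHL replicate 1, at 40.5 CPM against 28.5 or less (0.859).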

How the results depend on the processing

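None of the 40 genes passed an adjusted p of 0.05 under any alternative, where their smallest adjusted p was 0.815, and between 18 and 24 were above 0. DESeq2 called 4 genes of the whole table against 0 in edgeR, none of them among the 40, with 447 and 523 genes at an unadjusted p under 0.05. Of 602 gene values under the alternatives, 555 kept their direction and 47 reversed, in 18 genes. The largest reversal was that of Hspb1, and 22 genes did not reverse under any alternative run.

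Over the fits that each left out 1 library, log2 fold changes that changed sign ran from -0.97 to 0.13 for Hspa1a, -0.36 to 0.37 for Hspb1, -0.13 to 0.02 for Hsph1, -0.03 to 0.25 for Cryab, -0.05 to 0.02 for Hspa4, -0.05 to 0.09 for Hspa2 and -0.05 to 0.05 for Hspa12a. They ran from -0.03 to 0.01 for Hspa9, -0.07 to 0.00106 for Hspd1, -0.05 to 0.05 for Hspa13, -0.09 to 0.02 for Dnajb9, -0.12 to 0.08 for Creld2, -0.01 to 0.05 for Pdia6, -0.06 to 0.06 for Manf and -0.25 to 0.01 for Sdf2l1. For Ern1 they ran from -0.02 to 0.20, for Eif2ak3 from -0.07 to 0.02 and for Atf4 from -0.16 to 0.01. For Hspa1a, Hspb1, Hspd1, Hsph1 and Atf4 the sign changed without Control replicate 3 and not without any other library; the cause was not tested.

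With the choroid plexus score as a covariate, 4 genes reversed: Hspa4 (0.000133), Pdia6 (-0.02), Manf (-0.05) and Creld2 (0.04). With a correction for transcript length, Hspb1 (0.04), Hspa12a (-0.02), Hspa13 (-0.01), Dnajb9 (0.01) and Creld2 (0.03) reversed, and Pdia4 (0.24) and Herpud1 (0.14) had unadjusted p = 0.0330 and 0.0382 in edgeR. Hspa13 was at -0.01 in limma-voom. The causes were not tested.

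The labels do not say whether replicate numbers pair the samples. Correlations of same-numbered deviations from the group means were -0.448, -0.445 and 0.0612. They cannot settle the question, because the libraries also differed widely in choroid plexus transcripts. The replicate block over 6 libraries called 0 genes, with 18 of 40 members above 0, and reversed Hspa9 (0.01), Hspa12a (-0.05), Hspa13 (-0.06) and Ern1 (-0.02). Depth limits Hspb1 and Sdf2l1, the members with the lowest counts.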
